A study of Mus musculus with 18 samples.

Results

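Cytosolic ribosomal proteins are the protein components of the 80S ribosome, and their transcripts were followed here over a dose series of octanoate in a mouse hepatocyte line. Members were all genes whose symbol starts with Rpl or Rps, apart from the Rps6k kinases and Gm-type pseudogenes, with at least 1 probe detected at p under 0.05 on at least 4 of 18 arrays. Of 65 such genes with a named probe, 58 passed, out of 10605 named genes measured in the whole series, and 85 of the 96 probes that belong to them passed the same filter. The 58 genes comprised 28 proteins of the large subunit, 3 stalk proteins (Rplp0, Rplp1 and Rplp2), 22 proteins of the small subunit, 4 paralogs of ribosomal proteins (Rpl7l1, Rpl22l1, Rpl36al and Rps27l) and Rps19bp1, whose symbol meets the rule although it encodes a binding partner of Rps19 and no part of the ribosome. The 7 genes without a passing probe were Rpl3l, Rpl6, Rpl17, Rpl39l, Rps4l, Rps23 and Rps23rg1. Just inside the limit stood Rps20, detected on 4 arrays, and Rpsa, detected on 11, whereas the other 56 members were detected on all 18. Just outside stood Rpl6 and Rps23rg1, each with its best probe detected on 2 arrays, and Rpl39l, detected on 1.

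The cells were AML12, an immortalized line of mouse hepatocytes obtained from ATCC. Wells were seeded, left overnight and treated for 24 h with 1 mM octanoate (n = 4), 2 mM octanoate (n = 5), 5 mM octanoate (n = 4) or phosphate-buffered saline, PBS, as the control (n = 5). All groups received their treatment in complete DMEM with 10% fetal bovine serum, so the control cells also had the lipids of serum. Octanoate is a medium-chain fatty acid that enters mitochondria for oxidation without the carnitine shuttle that long-chain fatty acids need. The labels name a single cell line and leave unsaid if each replicate was a culture of its own, so the p-values rest on a spread between samples that may be technical.

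A ribosome holds a single copy of almost every ribosomal protein, with the acidic stalk proteins P1 and P2 as the exception, and proteins made in excess of assembly are degraded. Mammalian ribosomal protein transcripts start with a C followed by a run of pyrimidines, the 5′ terminal oligopyrimidine (TOP) motif, through which their translation follows the kinase complex mTORC1 and its target LARP1. The output of these proteins is therefore often controlled less through mRNA level than through translation, which an array of total RNA does not measure. Ribosomal protein transcripts are among the most abundant of a cell, and some, such as Rplp0, are widely used as reference transcripts in quantitative PCR.

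Starts of some members called at 5 mM are shown because the TOP run is the sequence feature by which the family is known. The start of Rpl38, whose probes disagreed, is added. The choice does not follow the size of the change, and other called members, such as Rps19bp1 and Rpl7l1, are not shown. Each line gives 40 bases before and 20 bases from the annotated RefSeq start on the GRCm38.p6 assembly, with the pyrimidine run in capitals. A run was any stretch of at least 5 C or T letters that starts with C within 10 bases of the annotated start, on the strand of the gene.
Rpl22, chr4:152325686-152325745, plus strand: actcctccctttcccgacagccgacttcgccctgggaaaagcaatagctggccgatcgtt
Rpl22, other annotated start, chr4:152324396-152324455, plus strand: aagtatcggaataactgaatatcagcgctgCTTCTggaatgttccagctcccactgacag
Rpl14, chr9:120571477-120571536, plus strand: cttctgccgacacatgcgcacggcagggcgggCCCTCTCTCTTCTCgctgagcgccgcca
Rplp0, chr5:115559427-115559486, plus strand: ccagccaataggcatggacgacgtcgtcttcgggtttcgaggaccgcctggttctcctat
Rpl12, chr2:32961672-32961731, plus strand: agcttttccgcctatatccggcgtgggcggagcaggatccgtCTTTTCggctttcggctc
Rps15a, chr7:118116128-118116187, minus strand: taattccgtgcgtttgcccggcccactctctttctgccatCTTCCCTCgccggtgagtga
Rps3, chr7:99483690-99483749, minus strand: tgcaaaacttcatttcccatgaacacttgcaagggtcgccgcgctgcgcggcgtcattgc
Rps9, chr7:3704001-3704060, plus strand: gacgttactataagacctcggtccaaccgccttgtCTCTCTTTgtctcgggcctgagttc
Rpl38, chr11:114668540-114668599, plus strand: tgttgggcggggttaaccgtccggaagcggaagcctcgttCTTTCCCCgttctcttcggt
The run starts exactly at the annotated start in Rps15a and Rpl38 and within the 10 bases around it in Rps9, Rpl14, Rpl12 and the other start of Rpl22. No run starts within those 10 bases in Rplp0, Rps3 or the first start of Rpl22, which says only that these letters are not there. Pyrimidine runs further from the start were left in lower case.

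The RefSeq table matched 49 of the 58 members, through 58 promoters of 250 bases before and 50 bases from the start. A pyrimidine run stood near the start in 28 of the 49 genes (57.1%), against 32.6% of all 27025 genes in the table. The letters CCGGAAG, the core bound by the ETS factor GABP, were found on either strand in 21 of the 49 genes (42.9%), against 9.93% of all genes. The letters AAGATGG, a core of YY1 sites, were found in 8 genes (16.3%, against 7.28%). The TATA box letters TATAAA were found in 6 (12.2%, against 15.7%), and the E-box letters CACGTG also in 6 (12.2%, against 8.09%). These 4 motifs were counted on both strands, overlaps between them were not removed, and a match describes letters only. Of the genes shown above, CCGGAAG was present in the promoter of Rpl38, AAGATGG in those of Rpl22 and Rps15a, TATAAA in those of Rpl22 and Rplp0, and CACGTG in that of Rpl14.

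RNA was measured on Illumina mouse BeadChips, slides of 6 arrays with bead-bound probes, and levels are given as normalized log2 signal. Each array detected between 17446 and 19842 probes, and replicates of a group correlated at 0.988 to 0.995 across probes. The hepatocyte markers Krt8, Krt18, Hnf4a, Ttr and Serpina1a were detected on all 18 arrays, Apoa1 was detected on 12, and the only probe of Alb, the defining transcript of mature hepatocytes, was detected on none, with a mean log2 signal of 4.31 that shows where background lies on this scale. Of the markers of other cell types, Ptprc, Adgre1, Pecam1 and Lrat were detected on no array, Cdh5 on 2, Kdr on 4 and Des on 14. The arrays lay on 3 BeadChips. All PBS arrays and replicate 1 of 1 mM shared a slide, the other 1 mM arrays were beside replicates 1 to 3 of 2 mM, and all 5 mM arrays were beside replicates 4 and 5 of 2 mM. A fit with BeadChip as a term therefore ties PBS to octanoate through a single array, 1 mM replicate 1, and its values are given where they end a call. The linking array was among 3 that were judged to stand apart and were left out together in an alternative. Comparisons with PBS all share the same 5 PBS arrays.

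As a group the ribosomal protein transcripts stayed close to their PBS level at every dose. At 5 mM, the median log2 difference of the 58 members was 0.01, with quartiles of −0.11 and 0.13, against a median of 0.01 and quartiles of −0.29 and 0.38 over all 10605 genes. The median size of the difference, whatever its sign, was 0.128 log2 units for the members and 0.334 for all genes. Differences ran from −0.99 for Rpl14 to 0.63 for Rpl22, and 6 members moved by more than 0.5 log2 units. At 1 mM the median difference of the members was 0.02, and at 2 mM it was 0.01. On the PBS arrays, the members' background-corrected signal summed to 4.932 ± 0.103% (SD, n = 5) of that of all tested probes, with 5.117 ± 0.149% at 1 mM (n = 4), 5.072 ± 0.129% at 2 mM (n = 5) and 4.93 ± 0.123% at 5 mM (n = 4), and the ranges of the PBS and 5 mM arrays overlapped. Quantile normalization gives every array the same distribution of signals, so a change in the total of ribosomal protein RNA that went with a like change in most other RNA would not show, and in cultures measured in bulk fewer cells and less RNA per cell cannot be told apart.

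Counted by the limma test at adjusted p under 0.05, over all tested probes, 4 members (6.9%) were called at 1 mM against PBS, of which 1 was higher and 3 were lower. The background over all 10605 genes was 19.6% called, with 11.1% higher and 8.49% lower. At 2 mM, 13 members (22.4%) were called, 6 higher and 7 lower, where 40.8% of all genes were called, 22.1% higher and 18.7% lower. At 5 mM, 21 members (36.2%) were called, 10 higher and 11 lower, where 58.7% of all genes were called, 31.9% higher and 26.7% lower. The members' share called was below that of all genes at each dose and in each direction. At 1 mM the count fell to 2 without PBS replicate 1, 2, 3 or 5 or 1 mM replicate 3. The balance of directions depended on the scaling. With median scaling in place of quantile normalization, 1 member was higher and 8 were lower at 5 mM and 1 was higher and 5 were lower at 2 mM, whereas in the authors' deposited table of processed values 19 were higher and 13 were lower at 5 mM. The share of all genes called under either setting is not given, so these counts have no background beside them. Under median scaling the median difference at 5 mM was 0.09 over all tested probes and −0.0009 over the members. With BeadChip as a term, 1 member was called at 1 mM (1 higher, 0 lower), 5 at 2 mM (3 and 2) and 10 at 5 mM (4 and 6), against 7.49%, 12.4% and 28.1% of all genes in the same fit. The higher counts at 2 mM and 5 mM in that fit include Rps20, whose signal is near background and which was detected on no PBS array.

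**Figure D1:**
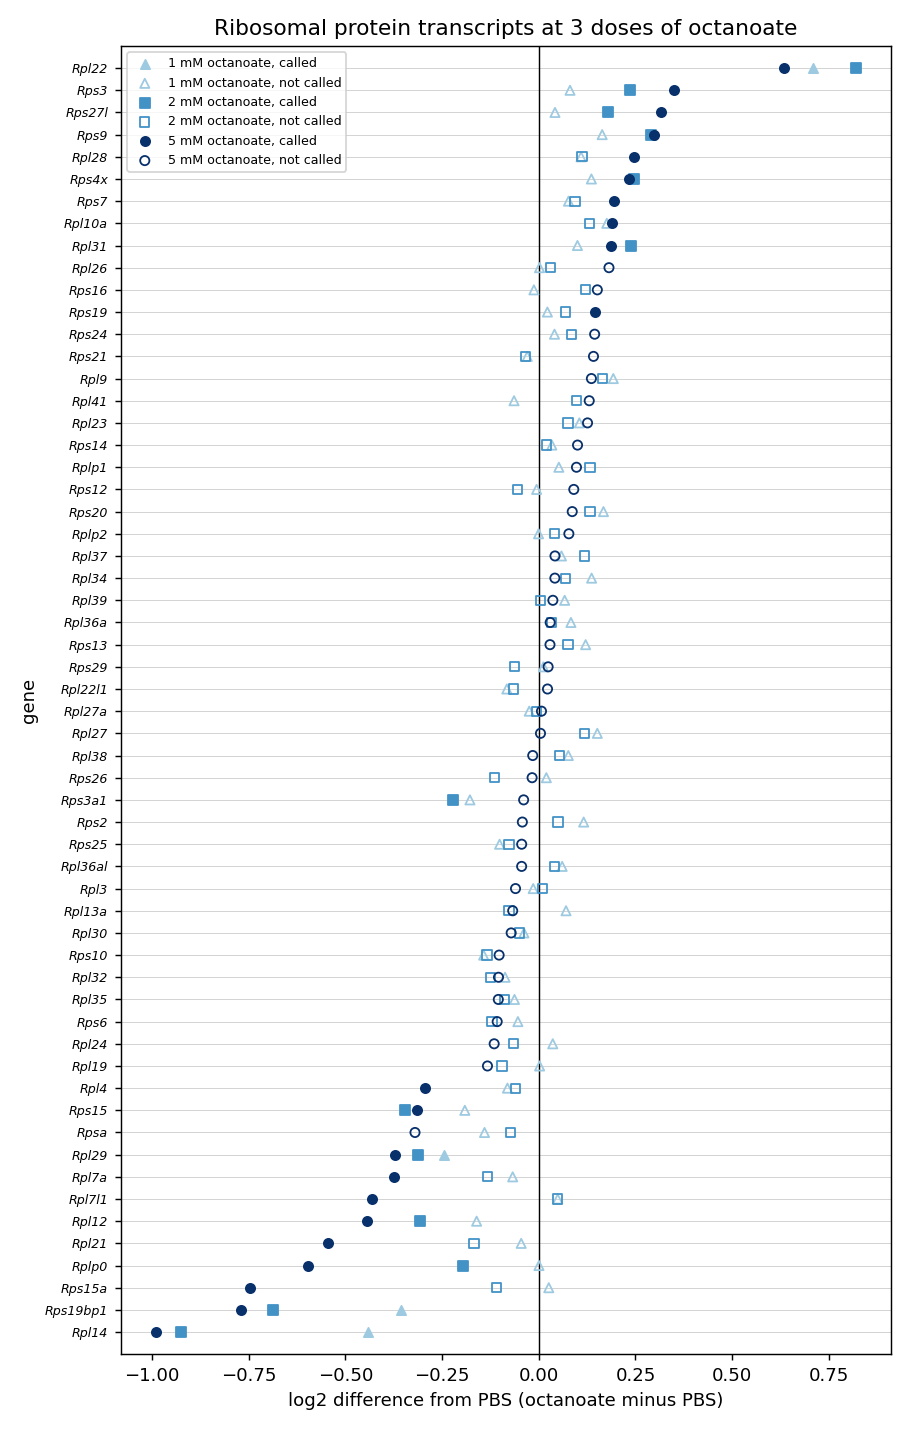
Log2 difference from PBS of each of the 58 genes (rows, ordered by the difference at 5 mM) at 1 mM (triangles), 2 mM (squares) and 5 mM octanoate (circles), with filled symbols for adjusted p under 0.05. Most genes lie close to 0 at every dose, with Rpl22 alone beyond 0.5 on the right and Rpl14, Rps19bp1, Rps15a, Rplp0 and Rpl21 beyond −0.5 on the left at 5 mM.

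In the fit without BeadChip, the intervals of most members were narrow. The 95% confidence interval of the 5 mM difference lay within ±0.5 log2 units for 46 of the 58 members and for 36 of the 37 that were not called, with a median distance of 0.160 from the estimate to a bound. The exception was Rpsa, the laminin-receptor protein of the small subunit, whose dim probe gave −0.32 log2 units (95% interval −0.76 to 0.12, adjusted p = 0.21). These intervals rest on the spread between arrays and do not cover a shift between slides, so they do not bound the effect of octanoate. With BeadChip as a term, Rpsa was −1.12 and Rpl22l1 0.43 at 5 mM (adjusted p = 0.105 and 0.429), both outside their intervals. At 5 mM, 10 members had all arrays above all PBS arrays and 12 had all arrays below them. Over all 10605 genes, 28.2% had all 5 mM arrays above and 23.2% had all below. Of these 22, Rpl26 (0.18, adjusted p = 0.056) and Rpl19 (−0.13, adjusted p = 0.096) were not called, and they are named after their values were seen.

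Among proteins of the large subunit, 4 rose and 6 fell at 5 mM out of 28. Over all genes, 31.9% were called higher and 26.7% lower at that dose. Within the large subunit, Rpl22 stood apart from the others at every dose. Rpl22 is an RNA-binding protein of the large subunit that ribosomes can lack, since its paralog Rpl22l1 can take its place. Its log2 signal was 8.94, 8.88, 8.79, 8.80 and 8.63 on the PBS arrays. It was 9.50, 9.56, 9.25 and 9.76 at 1 mM, 9.66, 9.72, 9.69, 9.55 and 9.52 at 2 mM, and 9.38, 9.49, 9.49 and 9.42 at 5 mM. Every octanoate array lay above every PBS array, and the levels at 5 mM lay within the range of those at 1 mM. The difference from PBS was 0.71 ± 0.09 at 1 mM (SE, adjusted p = 2.76e-05), 0.82 ± 0.09 at 2 mM (adjusted p = 4.38e-07) and 0.63 ± 0.09 at 5 mM (adjusted p = 6.59e-06). Rpl22 was the only member called at all 3 doses with BeadChip as a term, at 0.69, 0.86 and 0.77 log2 units (adjusted p = 0.0115, 0.0072 and 0.0172). Its paralog Rpl22l1 showed no call, with a log2 difference at 5 mM of 0.02 (95% interval −0.29 to 0.33), and its arrays overlapped between all groups.

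The other 3 rises of the large subunit were small and lay in very bright probes. Rpl28, a eukaryote-specific protein of the large subunit, rose by 0.25 ± 0.08 log2 units at 5 mM (adjusted p = 0.0104), with 14.21, 14.39, 14.21 and 14.20 at 5 mM against 13.96, 14.01, 13.99, 13.96 and 14.11 in PBS, and it was 0.52 with BeadChip as a term (adjusted p = 0.0332). Rpl10a, which lies in the mobile L1 stalk where spent tRNA leaves, rose by 0.19 ± 0.07 (adjusted p = 0.0275). Its call was lost without PBS replicate 4 or 5 or 5 mM replicate 1 or 2 (adjusted p = 0.0537 to 0.0742) and with BeadChip as a term (0.34, adjusted p = 0.128). Rpl31, at the rim of the exit tunnel, differed by 0.24 ± 0.07 at 2 mM (adjusted p = 0.00765) and by 0.19 ± 0.07 at 5 mM (adjusted p = 0.0296). Both were lost with BeadChip as a term (0.11 and 0.04, adjusted p = 0.68 and 0.911), and at 5 mM the call was also lost without PBS replicate 1 or 2 or 5 mM replicate 1, 2 or 3 (adjusted p = 0.0584 to 0.0831). With median scaling the 3 genes were not called. Other tested probes of Rpl28 and Rpl31 were not called at 5 mM. That of Rpl28 gave 0.08 (adjusted p = 0.469), and −0.32 with BeadChip as a term (adjusted p = 0.25). Those of Rpl31 gave 0.15 and −0.13 (adjusted p = 0.137 and 0.142). At 2 mM the Rpl31 probes gave 0.30 and 0.12 (adjusted p = 0.00504 and 0.176), and 0.46 and 0.03 with BeadChip as a term (adjusted p = 0.0877 and 0.921).

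Falls in the large subunit were deeper and lay in dimmer probes. Rpl14, a surface protein of the large subunit, had log2 signals of 6.04, 6.21, 6.33, 6.27 and 6.35 in PBS, 5.82, 6.04, 5.42 and 5.91 at 1 mM, 5.27, 5.38, 5.08, 5.72 and 5.13 at 2 mM, and 5.07, 5.40, 5.42 and 5.12 at 5 mM. All arrays of 2 mM and 5 mM lay below all PBS arrays, while at 1 mM replicate 2 reached the PBS range. Differences were −0.44 ± 0.13 at 1 mM (adjusted p = 0.0278), −0.93 ± 0.13 at 2 mM (adjusted p = 1.07e-05) and −0.99 ± 0.13 at 5 mM (adjusted p = 2.88e-06). The fall at 1 mM was lost with BeadChip as a term (−0.42, adjusted p = 0.291) and without PBS replicate 3 or 5 or 1 mM replicate 3 (adjusted p = 0.0565 to 0.114), whereas those at 2 mM and 5 mM were kept with BeadChip as a term (−0.97 and −1.14, adjusted p = 0.0343 and 0.0175). The probe of Rpl14 is dim, with a mean log2 signal of 5.67, and no other probe of the gene was tested. An offset added to every signal before the log shrinks the differences of dim probes. In Rpl38, Rps19 and Rps24, given below, a dimmer probe fell while the brightest did not. The fall of Rpl14 thus rests on a single dim probe.

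Rpl21, a large-subunit protein near the central protuberance, was called at 5 mM and at neither lower dose. Its log2 signal at 5 mM was 6.24, 6.28, 6.12 and 6.13, against 6.87, 6.76, 6.76, 6.84 and 6.45 in PBS, so all 5 mM arrays lay below all PBS arrays. The difference at 5 mM was −0.55 ± 0.10 (adjusted p = 6.47e-05), with −0.17 at 2 mM (adjusted p = 0.155) and −0.05 at 1 mM (adjusted p = 0.79). Its other 2 tested probes also fell at 5 mM, by 0.37 (adjusted p = 0.0174) and by 0.45 (adjusted p = 0.000906). All tested probes of Rpl21 are dim, with mean log2 signals of 6.56, 6.06 and 5.93. With BeadChip as a term the brightest probe kept its call (−0.80, adjusted p = 0.0162) and the other 2 did not (−0.46 and −0.11, adjusted p = 0.33 and 0.788).

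Rpl12, which sits at the base of the stalk where translation factors bind, was the only very bright member that fell. Its arrays read 14.22, 14.07, 14.09, 14.06 and 14.02 in PBS, 14.03, 13.95, 13.87 and 13.88 at 1 mM, 13.76, 13.75, 13.93, 13.80 and 13.69 at 2 mM, and 13.64, 13.76, 13.59 and 13.61 at 5 mM. The group means were ordered by dose, with differences of −0.16 (adjusted p = 0.136), −0.31 ± 0.07 (adjusted p = 0.00148) and −0.44 ± 0.07 (adjusted p = 3e-05), and no 2 mM or 5 mM array reached the PBS range. The falls at 2 mM and 5 mM were lost with BeadChip as a term (−0.15 and −0.24, adjusted p = 0.581 and 0.345).

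Rpl29, a small protein of the large subunit also known for binding heparin, was one of 4 members called at 1 mM. It read 11.84, 12.06, 12.07 and 11.89 at 1 mM, against 12.16, 12.15, 12.15, 12.41 and 12.18 in PBS, a difference of −0.24 ± 0.08 (adjusted p = 0.0424). That call was lost with BeadChip as a term (−0.37, adjusted p = 0.097) and without any of the 5 PBS arrays, 1 mM replicate 1 or 4, 2 mM replicate 2 or 5 mM replicate 1 or 4 (adjusted p = 0.0502 to 0.117). The falls at 2 mM (−0.31 ± 0.08, adjusted p = 0.00314) and 5 mM (−0.37 ± 0.08, adjusted p = 0.000611) were kept with BeadChip as a term (−0.52 and −0.64, adjusted p = 0.0476 and 0.0214). Rpl7a, which binds ribosomal RNA on the surface of the large subunit, differed by −0.37 ± 0.11 at 5 mM (adjusted p = 0.00748), but by −0.02 with BeadChip as a term (adjusted p = 0.968), and it was not called with median scaling. Rpl4, a protein of the exit tunnel named here because it completes the falls, was −0.29 ± 0.08 (adjusted p = 0.00303), and its BeadChip value was −0.52 (adjusted p = 0.0467). Of the large-subunit genes chosen whatever their result, Rpl3 beside the peptidyl transferase centre differed by −0.06 at 5 mM, Rpl36a by 0.03 and Rpl39, which lines the tunnel, by 0.04, and none of the 3 was called at any dose.

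The 3 stalk proteins recruit and activate the translation GTPases, with Rplp0 as the anchor and Rplp1 and Rplp2 as the mobile acidic partners. The probe of Rplp0 did not move with those of the partners, which are far brighter (mean log2 signals of 9.14 against 14.86 and 14.01). The part of probe brightness in this contrast was not tested. Rplp0 read 9.26, 9.53, 9.18, 9.35 and 9.30 in PBS, 9.30, 9.30, 9.38 and 9.32 at 1 mM, 9.16, 9.21, 9.07, 9.10 and 9.10 at 2 mM, and 8.85, 8.63, 8.76 and 8.67 at 5 mM. The 1 mM arrays lay inside the PBS range, and all 5 mM arrays lay below all others. Differences were 0.00 at 1 mM (adjusted p = 0.998), −0.20 ± 0.07 at 2 mM (adjusted p = 0.0361) and −0.60 ± 0.08 at 5 mM (adjusted p = 1.2e-06), and the fall at 5 mM was kept with BeadChip as a term (−0.58, adjusted p = 0.0319). At 2 mM the call was lost with BeadChip as a term (−0.21, adjusted p = 0.445), with median scaling, and without PBS replicate 2 or 4 or 2 mM replicate 3, 4 or 5 (adjusted p = 0.0642 to 0.114). A dimmer Rplp0 probe, with a mean log2 signal of 6.21, gave −0.33 at 5 mM (adjusted p = 0.0817) and 0.48 with BeadChip as a term (adjusted p = 0.308). Rplp1, the probe with the next to highest mean signal on the array, differed by 0.10 at 5 mM (95% interval −0.05 to 0.24) and Rplp2 by 0.08 (−0.08 to 0.24), and neither was called at any dose.

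**Figure D2:**
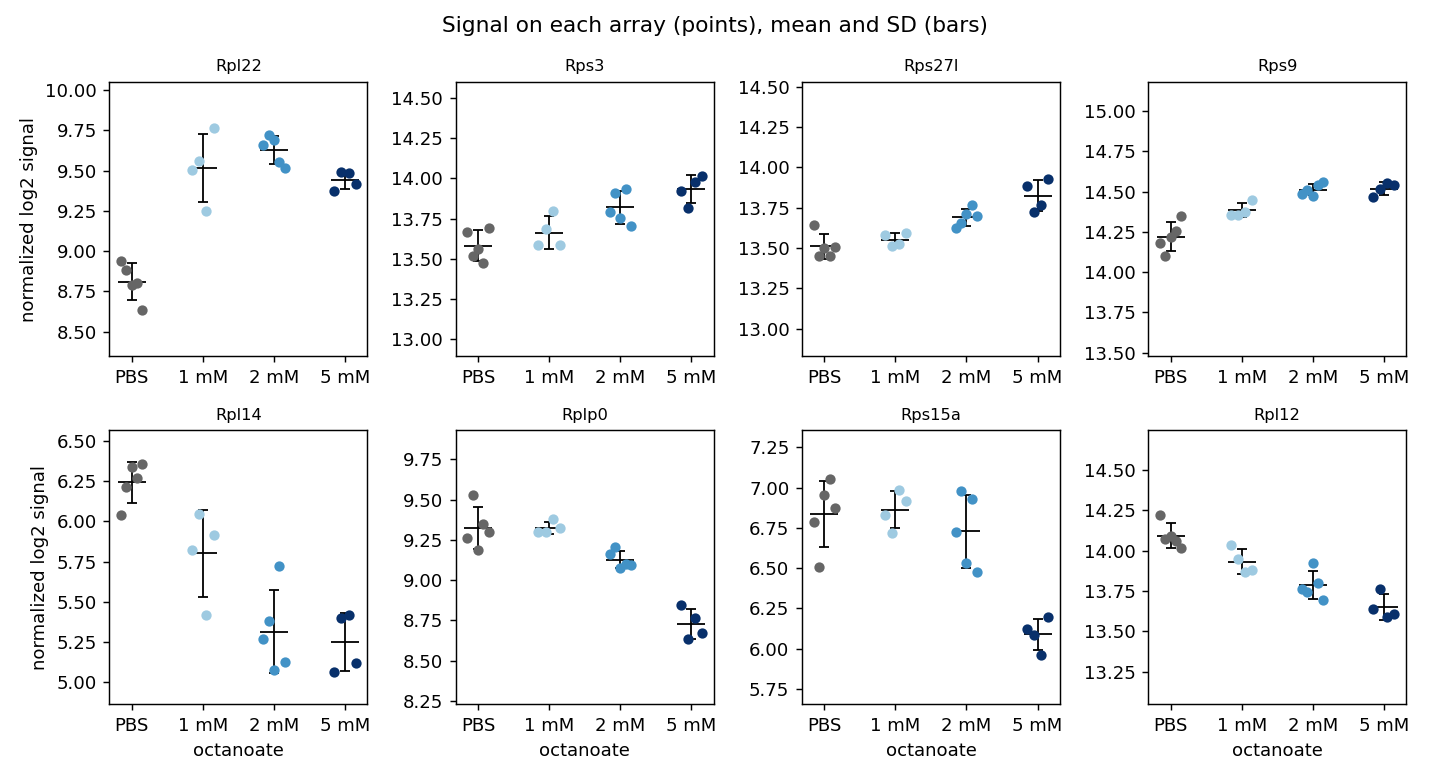
Normalized log2 signal (vertical axes, each spanning the same number of log2 units) on each array (points) for 4 genes that rose (top) and 4 that fell (bottom) in PBS, 1 mM, 2 mM and 5 mM octanoate, with bars for the mean and SD. Rpl22 is high at every dose, Rpl14 and Rpl12 decline over the doses, and Rplp0 and Rps15a are low at 5 mM, where Rplp0 reads 8.63 to 8.85.

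Among proteins of the small subunit, 5 rose and 2 fell at 5 mM out of 22, and each of the 5 rises was at most 0.35 log2 units. Over all genes, 31.9% were called higher and 26.7% lower at that dose. Rps3, which lines the mRNA entry channel and also acts in DNA repair, read 13.92, 13.81, 13.98 and 14.02 at 5 mM, against 13.67, 13.52, 13.56, 13.47 and 13.69 in PBS. No 5 mM array reached the PBS range, and the difference was 0.35 ± 0.08 (adjusted p = 0.000829), with 0.24 ± 0.07 at 2 mM (adjusted p = 0.0167). Rps9, a protein that binds early in small-subunit assembly, read 14.46, 14.52, 14.55 and 14.54 at 5 mM, against 14.18, 14.10, 14.22, 14.25 and 14.35 in PBS. Its difference was 0.29 ± 0.06 at 2 mM (adjusted p = 0.000984) and 0.30 ± 0.07 at 5 mM (adjusted p = 0.000693), and the arrays of both doses lay above those of PBS. In both genes the other tested probe was called in the same direction at 5 mM (0.23 for Rps3 and 0.29 for Rps9), and neither was with BeadChip as a term (−0.13 and 0.41, adjusted p = 0.683 and 0.147). The brighter probes of Rps3 and Rps9 were not called in that fit at 5 mM (0.24 and 0.20, adjusted p = 0.403 and 0.406) or at 2 mM (0.13 and 0.23, adjusted p = 0.669 and 0.309), and with median scaling neither was called at either dose.

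The remaining rises of the small subunit were smaller still. Rps4x, the X-linked form of a small-subunit protein, rose by 0.25 ± 0.07 at 2 mM (adjusted p = 0.013) and by 0.23 ± 0.08 at 5 mM (adjusted p = 0.0176), and was kept with BeadChip as a term (0.53 and 0.59, adjusted p = 0.0275 and 0.02), although without 5 mM replicate 1 the adjusted p at 5 mM was 0.0507. Rps7, known for binding the p53 regulator MDM2, differed by 0.19 ± 0.07 at 5 mM (adjusted p = 0.021). That call was lost with BeadChip as a term (0.22, adjusted p = 0.383) and without PBS replicate 5 or 5 mM replicate 1 (adjusted p = 0.0518 and 0.0544). Rps19, the protein most often altered in Diamond-Blackfan anaemia in humans, differed by 0.15 ± 0.06 (adjusted p = 0.0444), which was lost with BeadChip as a term (0.17, adjusted p = 0.434) and without PBS replicate 1, 2, 3 or 4, 2 mM replicate 1, 2 or 3 or any of the 5 mM arrays (adjusted p = 0.0519 to 0.0901). Median scaling left none of the 3 called at 5 mM and Rps4x uncalled at 2 mM. Rps6, the target of the S6 kinases, and Rps14, of the platform of the small subunit, differed by −0.11 and 0.10 at 5 mM (adjusted p = 0.309 and 0.231).

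Rps15a and Rps15 were the small-subunit members that fell. Rps15a, which binds the central domain of the small-subunit RNA, read 6.79, 6.51, 6.96, 7.05 and 6.88 in PBS, 6.83, 6.72, 6.99 and 6.92 at 1 mM, 6.72, 6.98, 6.53, 6.93 and 6.48 at 2 mM, and 6.12, 6.08, 5.96 and 6.19 at 5 mM. The 1 mM and 2 mM arrays overlapped with PBS, and the 5 mM arrays lay below all others. The difference at 5 mM was −0.75 ± 0.12 (adjusted p = 1.55e-05), and with BeadChip as a term it was the same size but not called (−0.75, adjusted p = 0.0722). The only tested probe of Rps15a is dim, with a mean log2 signal of 6.65. Rps15, whose tail reaches the decoding site, read 12.33, 12.46, 12.37 and 12.28 at 5 mM, against 12.68, 12.65, 12.63, 12.62 and 12.78 in PBS. Its difference was −0.35 ± 0.06 at 2 mM (adjusted p = 0.000212) and −0.31 ± 0.07 at 5 mM (adjusted p = 0.000455), and −0.28 and −0.24 with BeadChip as a term (adjusted p = 0.209 and 0.32). Rps3a1, named after its values were seen, was called only at 2 mM (−0.22 ± 0.07, adjusted p = 0.0152), with −0.04 at 5 mM (adjusted p = 0.68), and the call was lost with BeadChip as a term (−0.15, adjusted p = 0.598). Rps20 was not detected on any PBS array and only on 1, 2 and 1 arrays of 1 mM, 2 mM and 5 mM, so no fold is given.

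The 4 paralogs behaved unlike each other. Rps27l, a paralog of Rps27 known in humans as a target of p53, read 13.89, 13.72, 13.76 and 13.93 at 5 mM, against 13.65, 13.45, 13.50, 13.45 and 13.50 in PBS, with no overlap. Its difference was 0.32 ± 0.07 at 5 mM (adjusted p = 0.000661), and 0.28 with BeadChip as a term (adjusted p = 0.257). At 2 mM it was 0.18 ± 0.07 (adjusted p = 0.0369), which was lost with BeadChip as a term (0.19, adjusted p = 0.455), and without PBS replicate 2, 3, 4 or 5 or 2 mM replicate 3, 4 or 5 (adjusted p = 0.0574 to 0.0825). With median scaling it was not called at either dose. Rpl7l1, a nucleolar relative of Rpl7, read 10.05, 9.81, 10.07 and 9.95 at 5 mM, against 10.45, 10.29, 10.42, 10.45 and 10.41 in PBS. All its 5 mM arrays lay below those of PBS, and it fell by 0.43 ± 0.08 log2 units (adjusted p = 0.000129), with 0.05 at both 1 mM and 2 mM and −0.76 with BeadChip as a term at 5 mM (adjusted p = 0.00479). With median scaling its adjusted p at 5 mM was 0.0636. Rpl36al differed by −0.04 and Rpl22l1 by 0.02 at 5 mM, with no call at any dose.

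Rps19bp1, known in humans as AROS, a binding partner of both RPS19 and the deacetylase SIRT1, fell with dose. It read 7.82, 7.89, 7.68, 7.65 and 7.85 in PBS, 7.61, 7.41, 7.11 and 7.57 at 1 mM, 6.83, 7.23, 7.24, 7.13 and 7.03 at 2 mM, and 6.87, 6.96, 7.20 and 7.01 at 5 mM. Every octanoate array lay below every PBS array. The differences of −0.36 ± 0.11, −0.69 ± 0.10 and −0.77 ± 0.11 were called at all 3 doses (adjusted p = 0.0269, 2.55e-05 and 4.33e-06), but none was called with BeadChip as a term (−0.17, −0.43 and −0.50, adjusted p = 0.622, 0.228 and 0.175). At 1 mM the call was also lost without PBS replicate 1, 2 or 5 or 1 mM replicate 2 or 3 (adjusted p = 0.0517 to 0.111).

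Between neighbouring doses the members moved little. For 2 mM against 1 mM, 1 member was called, Rpl14, with a difference of −0.49 ± 0.13 log2 units (adjusted p = 0.043). Over all genes 5.95% were called in that step, 4.26% higher and 1.69% lower. The call was lost with BeadChip as a term (−0.55, adjusted p = 0.107) and without PBS replicate 2, 3 or 4, 1 mM replicate 1, 2 or 4, 2 mM replicate 1, 2, 3 or 5 or 5 mM replicate 4 (adjusted p = 0.0501 to 0.133). Between 5 mM and 2 mM, 0 members rose and 5 fell (8.62%), where 33.5% of all genes were called, 18.9% higher and 14.6% lower. The falls were Rps15a (−0.64 ± 0.12, adjusted p = 0.000257), Rpl7l1 (−0.48 ± 0.08, adjusted p = 0.000114), Rplp0 (−0.40 ± 0.08, adjusted p = 0.000392), Rpl21 (−0.38 ± 0.10, adjusted p = 0.00497) and Rpl4 (−0.23 ± 0.08, adjusted p = 0.0277). All 5 were kept with BeadChip as a term, which for this step compares arrays on 1 shared slide (−0.61, −0.60, −0.37, −0.47 and −0.28, with adjusted p = 0.00851, 0.000182, 0.0128, 0.00977 and 0.0475). With median scaling, under which the median of all probes was 0.16 in this step, Rps15a alone of the 5 was called. Tested as a straight line over dose, 20 members were called, 9 rising and 11 falling, against 55.6% of all genes, 30.7% rising and 24.9% falling. With BeadChip as a term, 1 rising and 5 falling members remained called.

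Brightness and direction went together among the members under quantile normalization. The probes of 35 members had a mean log2 signal of 13 or more, a limit chosen after the values were seen, and 20 members were among the 100 brightest probes of the array and 32 among the 200 brightest. Of these 35, 9 rose and 1 fell at 5 mM (28.6% called), with differences between −0.44 and 0.35. Of the 23 members below the limit, 1 rose and 10 fell (47.8% called), with differences between −0.99 and 0.63. Over all genes of any brightness 58.7% were called, 31.9% higher and 26.7% lower. No share is given for other genes below the limit. Genes outside the family with a probe as bright numbered 110, of which 53.6% were called at 5 mM, 32 higher and 27 lower, with differences between −2.59 and 1.34 and a median size of 0.216 log2 units, against 0.105 for the 35 bright members. With median scaling none of the 35 was called higher at 5 mM, and Rpl22, below the limit, was the only member that was. The highest raw signal on an array was between 26379 and 39168. The part of brightness in the small size of the changes was not tested.

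**Figure D3:**
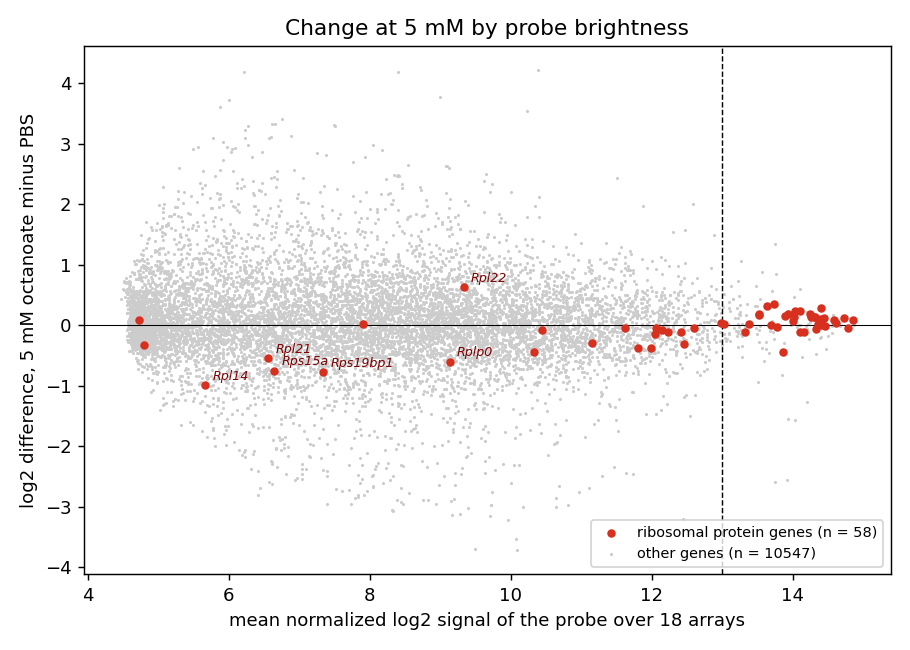
Log2 difference between 5 mM octanoate and PBS (vertical axis) against the mean normalized log2 signal of the probe (horizontal axis) for the 58 ribosomal protein genes (red) and the 10547 other genes (grey), with a dashed line at 13. The red points to the right of the line lie between −0.44 and 0.35, and the named genes with the largest differences lie to its left.

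Where a gene had several probes, they did not always agree. Of the 58 members, 19 had more than 1 tested probe, and at 5 mM the probes of Rpl21, Rpl29, Rpl4, Rpl7l1, Rps3 and Rps9 were all called in the same direction. The dimmer probes of Rpl7l1 and Rpl4 lay near background, with means of 4.80 and 5.17. At 2 mM they differed by −0.38 and −0.63, against 0.05 and −0.06 in the brighter probes. In the fit with BeadChip as a term, Rpl29 alone of these 6 genes kept the call in every probe (−0.64 and −0.88, adjusted p = 0.0214 and 0.0489). The probes named next were singled out after their values were seen. The widest gap was in Rpl38, a large-subunit protein known in mice for its part in the translation of Hox transcripts. Both of its probes carry the same RefSeq accession. The brighter one, with a mean of 14.46, differed by −0.02 at 5 mM (95% interval −0.16 to 0.13). The dimmer one, with a mean of 9.33, read 10.12, 10.16, 10.25, 10.42 and 10.25 in PBS, 9.72, 9.83, 9.69 and 9.56 at 1 mM, 9.11, 9.28, 9.17, 9.16 and 9.14 at 2 mM, and 8.05, 7.96, 8.03 and 8.12 at 5 mM. No 2 groups overlapped, and the differences from PBS were −0.54 ± 0.08, −1.07 ± 0.07 and −2.20 ± 0.08 (adjusted p = 8.1e-05, 1.16e-09 and 6.58e-15), each kept with BeadChip as a term (−0.52, −1.03 and −2.14, adjusted p = 0.0257, 0.000739 and 4.35e-07). Probe sequences were not used here, so which transcript the dimmer probe binds was not examined.

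Rps19 was the only member with probes called in opposite directions at 5 mM. Its bright probe, given above, was 0.15 higher, and a dim one with a mean of 5.64 differed by −0.86 ± 0.13 (adjusted p = 7.43e-06), or −0.74 with BeadChip as a term (adjusted p = 0.087). In Rps24, the bright probe differed by 0.14 (adjusted p = 0.124), and a probe with a mean of 9.76, for another RefSeq transcript, fell by 0.56 ± 0.07 (adjusted p = 1.51e-06), or by 0.80 with BeadChip as a term (adjusted p = 0.00203). In Rps2, of the mRNA entry channel, both probes were bright, with means of 14.78 and 14.07. The brighter differed by −0.04 and the other by −0.46 ± 0.08 (adjusted p = 5.87e-05), which was lost with BeadChip as a term (−0.39, adjusted p = 0.156). A statement on these 4 genes therefore depends on the probe. The same holds for Rpl23, Rpl28, Rpl30, Rpl31, Rplp0 and Rps13, where some tested probes were called at 5 mM and others were not. In Rpl23, Rpl30 and Rps13 the brightest probe was not called but a dimmer one was (0.24, 0.33 and −0.28, adjusted p = 0.0412, 0.0136 and 0.0267). None of these calls was kept with BeadChip as a term (adjusted p = 0.926, 0.0828 and 0.385).

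**Figure D4:**
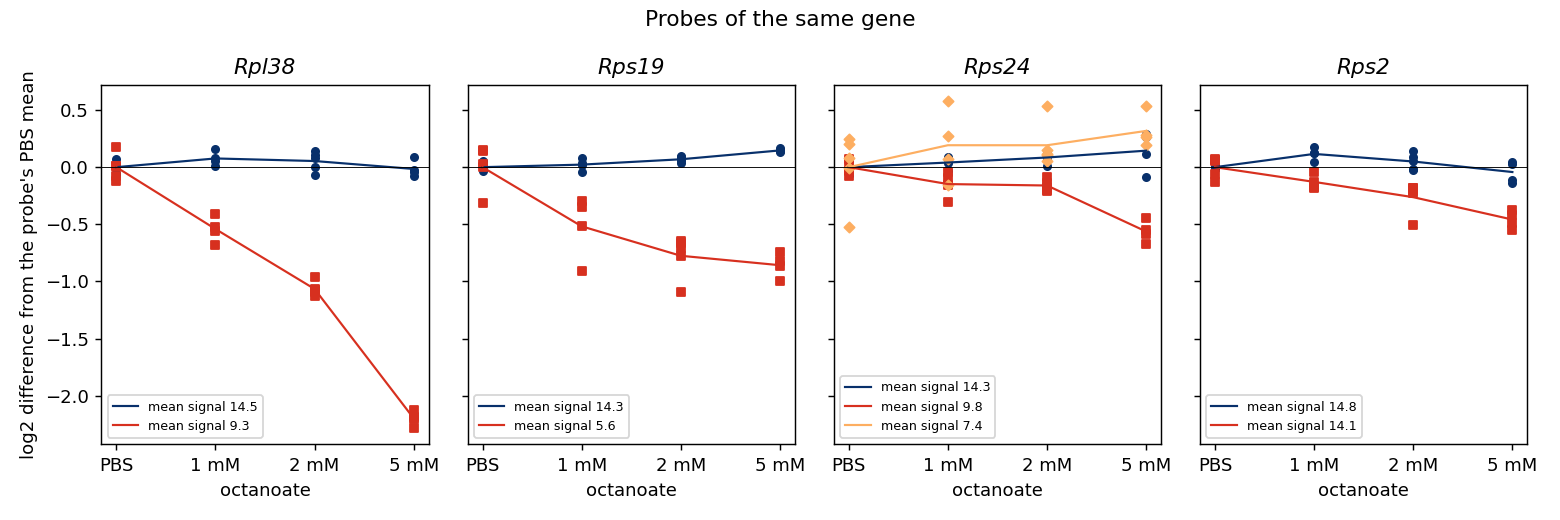
Difference in log2 signal from the probe's own PBS mean (vertical axis) on each array (points) and as group means (lines) in PBS, 1 mM, 2 mM and 5 mM octanoate, for each tested probe of Rpl38, Rps19, Rps24 and Rps2, with the probe's mean log2 signal in the legend. The brightest probe of each gene differs by −0.04 to 0.15 at 5 mM, and the dimmer probe of Rpl38 reaches −2.20.

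Other genes of the translation machinery were described by lists chosen with earlier results of these data known. Mitochondrial ribosomal proteins, which build the separate ribosome of mitochondria, had 73 members measured, and at 5 mM 6 rose and 32 fell (52.1% called) with a median of −0.19, where 58.7% of all genes were called, 31.9% higher and 26.7% lower. At this dose 6 were higher and 8 were lower with median scaling, and 1 and 12 with BeadChip as a term. The share of all genes called with median scaling is not given, here or for the lists below. The BeadChip fit called 28.1% of all genes. At 2 mM 8 rose and 17 fell, where 22.1% of all genes rose and 18.7% fell. At 1 mM 2 rose and 2 fell, where 11.1% of all genes rose and 8.49% fell. Mrpl54 fell by 1.05 ± 0.09 log2 units at 5 mM (adjusted p = 4.29e-09), Mrpl3 by 0.82 ± 0.07 (adjusted p = 1.04e-08) and Mrps28 by 0.79 ± 0.08 (adjusted p = 6.37e-08), while Mrps6 differed by 0.91 ± 0.09 (adjusted p = 7.99e-08; 0.58 and adjusted p = 0.059 with BeadChip as a term). The difference between this list and the cytosolic members was not tested.

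Chaperones and importins that carry new ribosomal proteins to the nucleolus fell at 5 mM in 8 of 10 genes, with 0 rising and a median of −0.81, where 26.7% of all genes fell. At 2 mM 6 of the 10 fell, where 18.7% of all genes fell, and at 1 mM 5 fell, where 8.49% of all genes did. Grwd1, whose yeast counterpart is the chaperone of Rpl3, averaged 7.48 ± 0.15 log2 units at 5 mM (SD, n = 4) and 9.23 ± 0.08 in PBS (SD, n = 5), so that it fell by 1.75 ± 0.08 (adjusted p = 4.36e-13). Ltv1, an assembly factor of the small subunit, fell by 1.07 ± 0.10 (adjusted p = 1.83e-08), the importin Kpnb1 by 0.95 ± 0.11 (adjusted p = 3.04e-07) and Ipo5 by 0.72 ± 0.09 (adjusted p = 9.25e-07; −0.46 and adjusted p = 0.127 with BeadChip as a term). In the fit with BeadChip as a term, 5 of the 10 genes fell at 5 mM, where 28.1% of all genes were called in either direction.

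A mixed list of translation factors and TOP transcripts had 32 of 40 genes measured, and which of them carry a TOP motif was not examined. At 5 mM 3 rose and 14 fell (53.1% called), with a median of −0.19. Over all genes 58.7% were called at that dose, 31.9% higher and 26.7% lower. Eif3b, a scaffold of the initiation factor eIF3, fell by 0.91 ± 0.08 (adjusted p = 1.33e-08), Eif5a, which helps elongation past difficult sequences, by 0.75 ± 0.07 (adjusted p = 2.29e-08), Eif6, which keeps new large subunits from joining, by 0.70 ± 0.08 (adjusted p = 2.12e-07) and the helicase Eif4a1 by 0.59 ± 0.07 (adjusted p = 3.94e-07). The fit with BeadChip as a term called 1 gene of the list higher and 6 lower, against 28.1% of all genes called, and median scaling 1 and 9.

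Genes of mTORC1 and of TOP translation control moved in both directions, with 6 of 20 measured genes higher and 6 lower at 5 mM and a median of 0.09. That is 60% called, near the 58.7% of all genes (31.9% higher and 26.7% lower). With BeadChip as a term 4 were higher and 2 were lower, and with median scaling 7 and 2. The BeadChip fit called 28.1% of all genes. Deptor, a subunit that inhibits mTOR, averaged 8.32 ± 0.08 at 5 mM (SD, n = 4) and 6.70 ± 0.14 in PBS (SD, n = 5), a rise of 1.61 ± 0.10 log2 units (adjusted p = 2.99e-11). Castor1, the arginine sensor upstream of mTORC1, rose by 1.65 ± 0.13 (adjusted p = 1.14e-09), and Sesn1, of the sestrins that restrain mTORC1 when amino acids are low, by 0.65 ± 0.07 (adjusted p = 2.65e-07). Akt1s1, which encodes the mTORC1 inhibitor PRAS40, fell by 0.87 ± 0.07 (adjusted p = 4.68e-09). Inhibitors thus stood on both sides, and these values are mRNA levels, not kinase activity. Of 9 snoRNA host genes 2 were measured, with Snhg12 higher by 0.82 ± 0.10 at 5 mM (adjusted p = 8.99e-07; 0.70 and adjusted p = 0.0512 with BeadChip as a term) and Snhg5 lower by 0.72 ± 0.11 (adjusted p = 9.04e-06).

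**Figure D5:**
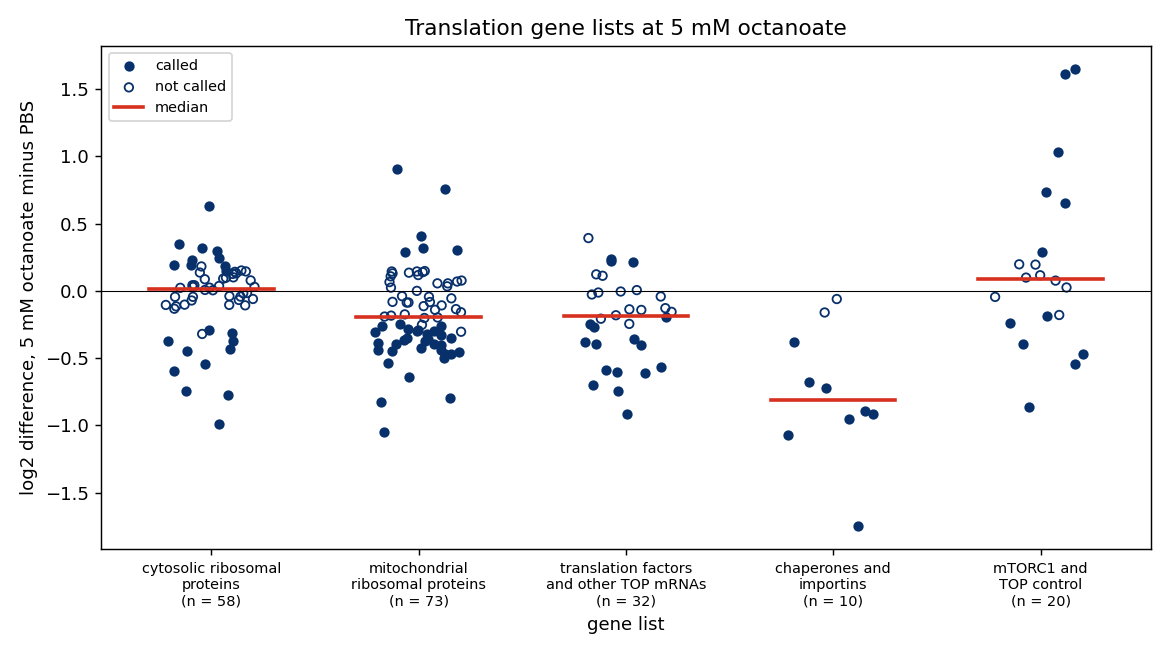
Log2 difference between 5 mM octanoate and PBS (vertical axis) for each gene (points, filled where adjusted p is under 0.05) of 5 lists of translation genes, with red lines for the medians. The cytosolic ribosomal proteins centre on 0.01, the mitochondrial ribosomal proteins and translation factors on −0.19, the chaperones and importins on −0.81 and the genes of mTORC1 and TOP control on 0.09.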

How the data were processed

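RNA of AML12 cells was hybridised in 1 colour to Illumina mouse BeadChips, 18 arrays in 4 groups by the labelled treatment. Per the file headers, the authors deposited a mean bead intensity and a detection p-value for each of 45281 probes, not normalized. A deposited table of processed values was on a log2-like scale, with array medians between 7.352 and 7.357, not centred by gene and running in the direction of the intensities. How the authors normalized it is not given in the sources here, where the submitters' processing notes name lumi. It served as an alternative.

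The neqc function of limma 3.58.1 (R 4.3.3, statmod 1.5.0) corrected the background by normexp from the detection p-values, added an offset of 16 and applied quantile normalization and log2. The tested probes were those with a detection p under 0.05 on 4 or more arrays (20536, 45.4%). Group means were fitted by lmFit and eBayes to all 18 arrays (14 residual degrees of freedom), two-sided, with Benjamini-Hochberg adjustment over all tested probes and calls at adjusted p under 0.05. Precision is limited by the number of arrays (median SE at 5 mM against PBS 0.114 log2 units). Symbols came from the platform annotation, updated by Entrez ID through RefSeq (GRCm38.p6), with 34885 probes of 1 symbol, 18 of several and 10378 unnamed here. A gene was represented by its brightest tested probe. The fit was tested on simulated data.

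Members, gene lists and the naming rule were chosen with earlier results of these data known. The rule named, among called members, the 10 largest rises and falls at 5 mM, the 5 largest of each at 1 mM and 2 mM and the 3 largest of each between neighbouring doses, together with 24 fixed names (17 with a tested probe) and up to 4 genes of each list. It named 30 members. Alternatives were median scaling, an offset of 50, the authors' table, other filters, the mean of a gene's probes, BeadChip as a fixed or random term, a replicate block and leaving out arrays. Cross-hybridization with pseudogenes was not examined.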

Additional observations from a re-analysis of the deposited data

Results flagged for a closer look

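In 9 of 124 groups of 4 or 5 arrays examined among the named members and the dimmer Rpl38 probe, 1 array stood far from the others of its group by Dixon's test. Chance flags about 1 group in 20. In the 5 mM group, Rpl28 read 14.39 on replicate 2, against 14.2 to 14.21 on the others. In the 2 mM group, Rpl31 read 14.12 on replicate 4, against 14 to 14.03, and Rps6 read 12.48 on replicate 3, against 12.32 to 12.36. The other 6 lay in PBS. Rpl21 was low on replicate 5 (6.451, against 6.757 to 6.872), Rpl7l1 on replicate 2 (10.29, against 10.41 to 10.45) and Rplp2 on replicate 1 (13.84, against 13.99 to 14.05). Rpl29 was high on replicate 4 (12.41, against 12.15 to 12.18), Rps27l on replicate 1 (13.64, against 13.45 to 13.5) and Rps4x on replicate 3 (13.97, against 13.83 to 13.87).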

How the results depend on the processing

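Over 60 named results, each a gene in a comparison, 589 of 659 values under alternatives kept direction and call, 69 lost the call and 1 reversed, Rps19 at 5 mM with the mean of its probes (−0.3558, adjusted p = 0.000173). Losses came mainly with BeadChip as a fixed term (27) and median scaling (21). Leaving out 1 array lost 64 of 1080 values and reversed 0.

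With median scaling, medians of the members were −0.1481 at 1 mM, −0.08613 at 2 mM, 0.05311 for the step to 2 mM and 0.08192 for the step to 5 mM, where the median of all probes was −0.11, −0.05, 0.08 and 0.16. Calls were then 6 at 2 mM, 9 at 5 mM, 0 and 1 for these steps and 6 for the slope. The authors' table gave 12, 23 and 32 calls at 1 mM, 2 mM and 5 mM and 2 and 13 for the steps. BeadChip as a fixed term gave 1, 5 and 10 calls, 0 for 2 mM against 1 mM and 6 for the slope. The mean of a gene's probes gave 9 calls at 1 mM, 2 for 2 mM against 1 mM and a median of −0.03394 at 2 mM. For 2 mM against 1 mM, an offset of 50 gave 2 calls and no filter gave 0. Without the 3 arrays judged to stand apart, 1 mM replicates 1 and 4 and 2 mM replicate 5, calls were 2 at 1 mM and 0 for 2 mM against 1 mM. Leaving out 1 array gave 2 to 5 calls at 1 mM and 0 to 2 for 2 mM against 1 mM. The causes were not tested.

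With the replicate number as a block, calls were 2 at 1 mM and 0 for 2 mM against 1 mM. Arrays sharing a number were not paired, with correlations of their deviations between −0.041 and 0.054 over 25 pairs and 3 of 18 arrays closest to their own number. Signal near background limits Rps20 and Rpsa.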
